A study of Mus musculus with 6 samples.

Results

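The genes described here are 42 genes of DNA replication and of the G1/S transition, the step at which a cell commits to copying its genome. They were chosen by name and function, with no measured value in the rule, though earlier results of these data were known. All 42 were found among the 44788 entries of the deposited count table. RNA was sequenced from cultured chondrocytes, the cells that make cartilage, taken from the femoral epiphysis of C57BL/6 mice at postnatal day 1 and cultured with 10% FBS in DMEM/F12. Control cultures received 0.1% DMSO for 48 h. TGF-alpha cultures received 0.1% DMSO and 10 ng/ml TGF-alpha, which activates EGFR, the receptor of epidermal growth factor, for 48 h. TGF-alpha plus gefitinib cultures received 10 µM gefitinib, an inhibitor of the EGFR kinase, for 30 min and then gefitinib and TGF-alpha together for 48 h, again in 0.1% DMSO. Each of the 3 groups had 2 libraries, so every group carried DMSO and serum, and no group with gefitinib alone was analysed here. The series' design text names PBS where the treatment protocol names DMSO for the control, and it calls the cells P2, a term it does not explain. No label says that the 2 libraries of a group came from separate cultures or animals, so p-values measure only the spread between these libraries, which may be technical.

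In the G1 phase of the cell cycle, the origin recognition complex, Cdc6 and Cdt1 load the MCM helicase on DNA, a step called licensing. At the start of S phase, kinases, among them the one that cyclin E activates, help to turn this helicase into a moving fork, which needs polymerases, a sliding clamp, nucleotides and new chromatin. Many genes of this machinery are targets of the E2F transcription factors, and proliferating chondrocytes use them in the growth of cartilage.

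The E2F factors bind motifs near gene starts, so the DNA just before the starts of the members was searched. The 4 members with an E2F match and the largest rises with TGF-alpha are printed below to show where the match lies. They were picked by their rises, so they cannot show whether a match goes with a large rise. Sequences are from the RefSeq promoter table (GRCm38.p6), which held 35 of the 42 members with 43 start sites, and all 4 are on the plus strand. Capitals mark the E2F match, which in Mcm5 is formed by 2 overlapping matches on opposite strands. The 30 bases of Orc1 are chr4:108579416-108579445, and the match lies in an exon of longer Orc1 transcripts in GENCODE M21. The 30 bases of Cdc6 are chr11:98908002-98908031, in an intron of longer Cdc6 transcripts. The 250 bases of Uhrf1 are chr17:56304063-56304312, with the match in an intron of longer Uhrf1 transcripts. The 250 bases of Mcm5 are chr8:75109259-75109508, and no annotated exon overlaps them.
Orc1: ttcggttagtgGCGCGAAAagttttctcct
Cdc6: gccggtggagaGCGGGAAAtcgcctggggt
Uhrf1: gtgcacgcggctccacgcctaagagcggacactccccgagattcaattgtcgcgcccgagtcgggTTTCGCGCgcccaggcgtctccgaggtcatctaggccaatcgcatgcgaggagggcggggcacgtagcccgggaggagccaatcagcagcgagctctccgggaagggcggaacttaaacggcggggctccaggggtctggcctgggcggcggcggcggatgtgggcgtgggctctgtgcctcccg
Mcm5: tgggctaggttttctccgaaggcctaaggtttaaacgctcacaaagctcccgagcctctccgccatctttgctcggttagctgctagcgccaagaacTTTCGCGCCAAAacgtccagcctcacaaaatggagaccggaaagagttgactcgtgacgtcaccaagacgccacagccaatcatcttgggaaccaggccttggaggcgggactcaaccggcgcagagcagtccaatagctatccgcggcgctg

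An E2F match was counted as TTTCCCGC, TTTCGCGC, TTTGCCGC or TTTGGCGC on either strand within 250 bases before a start site. It was present at 10 of the 43 member start sites (23.3%), against 3.26% of the 12514 start sites of all tested genes. It was at 8 of 62 start sites (12.9%) of the other replication genes and 1 of 30 (3.33%) of the mitosis genes. In the 100 bases before the start the order changed, with a match at 6.98% of member start sites, 9.68% of those of other replication genes and 1.46% of all. The 10 members with a match were Orc1, Cdc6, Mcm5, Mcm6, Mcm7, Pola1, Rfc3, Uhrf1, Dnmt1 and E2f7, and their 13 matches began between positions -219 and -10 from the start. With TGF-alpha their log2 fold changes ran from 0.44 to 1.76, with a median of 1.04. Those of the 25 searched members without a match ran from 0.11 to 1.57, with a median of 0.69. Tk1, Rrm2 and Rrm1 had no match and larger rises than Mcm5. The difference between these 2 sets was not tested. The CCAAT box, which NF-Y binds, was at 60.5% of member start sites, 35.2% of all and 73.3% of those of mitosis genes. The CHR element, here TTTGAA or TTCGAA, was at 18.6%, 11.9% and 43.3% in the same order. The Sp1 motif GGGCGG was at 60.5% of member start sites and 58.2% of all. The AP-1 motif, TGACTCA or TGAGTCA, was at none of the 43 and at 3.25% of all. A match describes these letters in this window and is not a measured binding site.

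**Figure D1:**
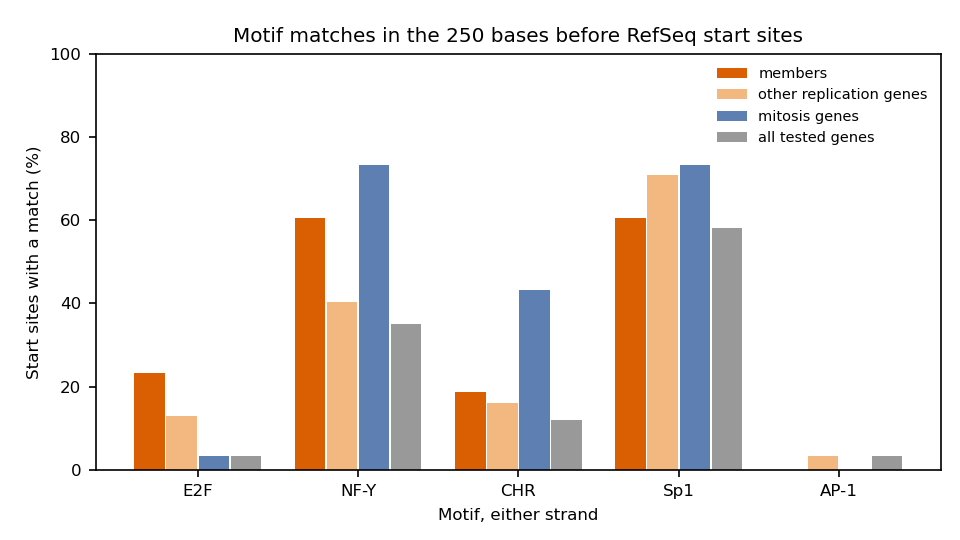
Share of RefSeq start sites (y axis, %) with at least 1 match to each motif (x axis) on either strand in the 250 bases before the start, for the members, other replication genes, mitosis genes and all tested genes. The E2F bars are 23.3% for the members and 12.9% for the other replication genes in this window, an order that turned in 100-base windows. The CHR bar of the mitosis genes is 43.3%.

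Total counts per library lay between 12317407 and 16096263, and 15362 genes passed the filter on low counts, among them all 42 members. Member counts ran from 4 (Orc1) to 2613 (Dnmt1), with 28 members at 100 counts or more in every library. Levels are given as CPM, counts scaled to a common library size by the TMM method. Replicates of 1 group differed by a median of 5.77% (SD as a share of the mean) over the members in control, 6.85% with TGF-alpha and 8.78% with both agents. Egfr itself was at 69.2 and 65.1 CPM in control, 72.0 and 70.3 CPM with TGF-alpha and 54.9 and 53.9 CPM with gefitinib added, and it was called lower in the last group than with TGF-alpha alone (log2 fold change -0.39, adjusted p = 3.39e-04) or in control (log2 fold change -0.30, adjusted p = 0.00926).

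Most of the 42 members were higher with TGF-alpha, and with gefitinib added no member was called different from control. Of 62 other replication genes, described below, 25 were called higher with TGF-alpha and 4 lower. With TGF-alpha, 36 of the 42 members were called higher and none lower, where 15.9% of all tested genes were called higher and 14.0% lower (edgeR quasi-likelihood test, Benjamini-Hochberg adjusted p under 0.05). The median member changed by 0.76 on the log2 scale (1.70-fold), the range was 0.11 to 1.76, and the median over all tested genes was 0.00. The estimate was above 0 for all 42, and for 41 of them both TGF-alpha libraries lay above both control libraries, as they did for 32.8% of all tested genes. The 6 members not called were Orc6, Gins1, Prim1, Rfc4, Dut and E2f2. The summed level of the members was 864 ± 13.6 CPM in control, 1456 ± 48.4 CPM with TGF-alpha and 836 ± 35.0 CPM after gefitinib and TGF-alpha (SD, n = 2 each). These are bulk cultures, in which a change in the number of cycling cells and a change in RNA per cell cannot be told apart. An exact two-sided permutation test of 2 libraries against 2 cannot give a p below 0.333, so the sums were not tested.

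When gefitinib was added to TGF-alpha, 37 members were called lower and none higher, where 16.9% of all tested genes were called lower and 17.0% higher than with TGF-alpha alone. The median was -0.78 and the range -1.72 to -0.08 on the log2 scale, and in 39 of 42 members both gefitinib libraries lay below both TGF-alpha libraries, as they did for 32.3% of all tested genes. The 5 not called were Orc6, Gins1, Tyms, E2f1 and E2f2. This comparison shares the TGF-alpha libraries with the one against control, so its estimates are not independent of the rises. Against control, TGF-alpha plus gefitinib gave 0 called members by edgeR, with 6 at an unadjusted p under 0.05, and 0 by DESeq2, where 5.27% of all tested genes were called higher and 4.26% lower. There the members' median was -0.05, the range -0.55 to 0.42, and 19 estimates were positive and 23 negative. The libraries of these 2 groups did not overlap, in either direction, for 50% of members and 52.1% of all tested genes. A missed threshold does not show equal levels: the 95% interval lay within 0.5 of 0 on the log2 scale for 29 members and within 1 for 40. By call, 34 members were higher with TGF-alpha, lower when gefitinib was added and not called against control. Tyms and E2f1 were called with TGF-alpha and in neither other comparison, Prim1, Rfc4 and Dut when gefitinib was added and in neither other, and Orc6, Gins1 and E2f2 in none.

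**Figure D2:**
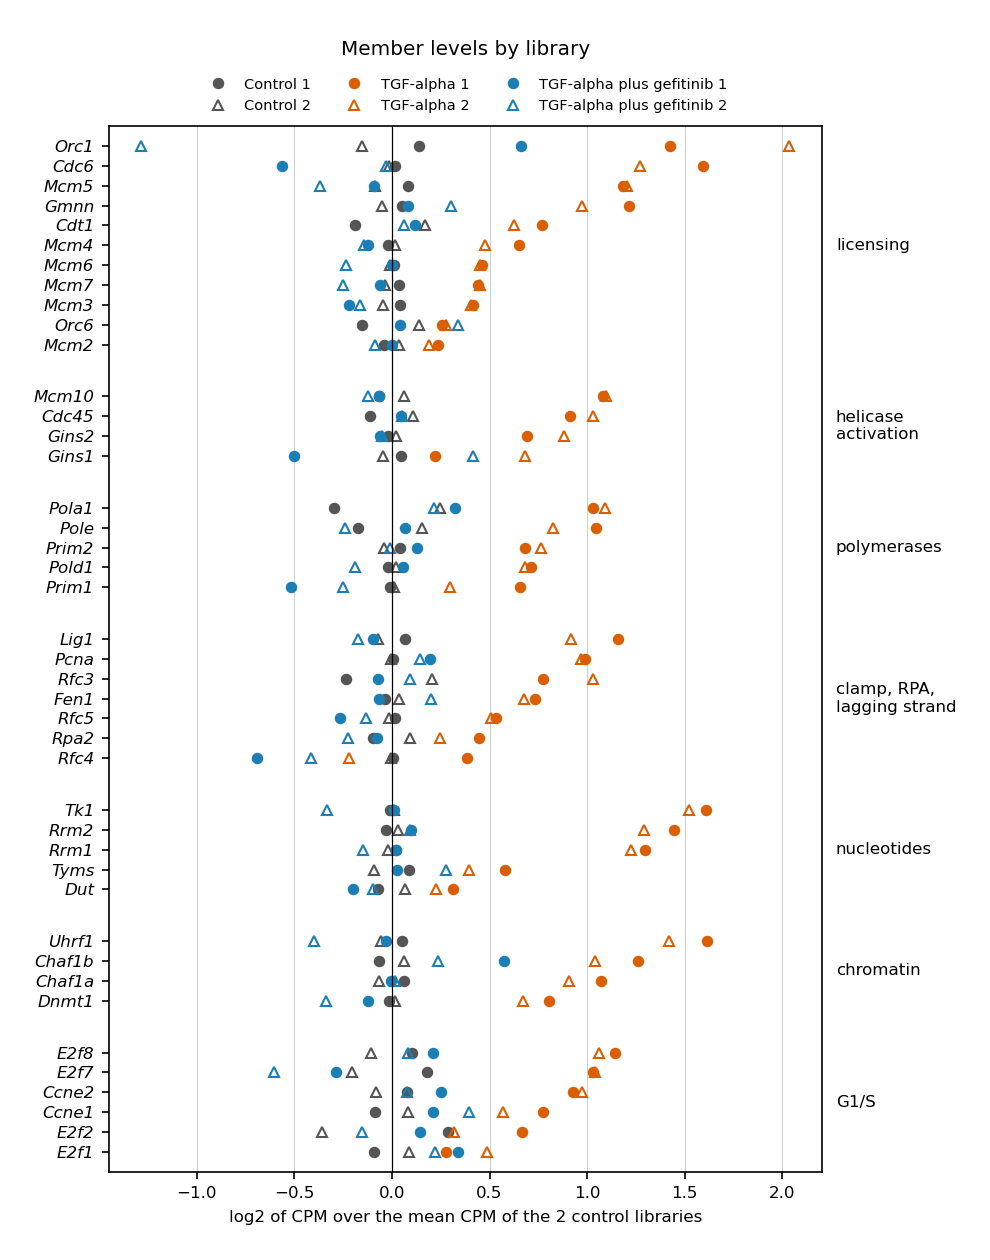
Level of each member in each of the 6 libraries as log2 of its CPM over the control mean (x axis), with members grouped by role (y axis) and sorted by fold change. TGF-alpha libraries (orange) lie to the right of the control libraries (grey) in 41 of 42 members, and the gefitinib libraries (blue) lie around the controls.

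Among the 11 licensing genes, 10 were called higher with TGF-alpha and the same number lower when gefitinib was added, with medians of 0.56 and -0.61. Mcm5, a subunit of the MCM helicase, was at 25.5 and 22.7 CPM in control, 54.8 and 55.6 CPM with TGF-alpha and 22.6 and 18.6 CPM with gefitinib added. It rose 2.30-fold (log2 fold change 1.2, 95% interval 0.98 to 1.42, adjusted p = 3.36e-07) and fell when gefitinib was added (log2 fold change -1.42, adjusted p = 6.61e-08), and the TGF-alpha libraries stood apart from the other 4. The other 5 subunits of the same ring had smaller estimates. Mcm4 was at 43.2 and 44.3 CPM in control, 68.7 and 60.9 CPM with TGF-alpha and 40.2 and 39.6 CPM with gefitinib added, a rise of 1.48-fold (log2 fold change 0.56, 95% interval 0.40 to 0.73, adjusted p = 4.75e-05), and it fell when gefitinib was added (log2 fold change -0.70, adjusted p = 5.82e-06). Mcm3, Mcm6 and Mcm7 rose by 0.41 to 0.46 on the log2 scale, and Mcm3, at 42.1 and 39.6 CPM in control, 54.5 and 54.2 CPM with TGF-alpha and 35.1 and 36.5 CPM with gefitinib added, fell when gefitinib was added (log2 fold change -0.60, adjusted p = 2.12e-05). The rise of Mcm3 was not called in the test against a 1.2-fold change. Mcm2 had the smallest called rise of all members, from 60.2 and 63.5 CPM in control to 72.8 and 70.5 CPM with TGF-alpha, and stood at 61.9 and 58.1 CPM with gefitinib added. Its fold change was 1.16 (log2 fold change 0.21, 95% interval 0.07 to 0.35, adjusted p = 0.0263), and the call was lost under DESeq2 (adjusted p = 0.126), in a test against a 1.2-fold change and without any 1 of the 4 libraries compared. The fall of Mcm2 with gefitinib (log2 fold change -0.25, adjusted p = 0.00858) was lost in the test against a 1.2-fold change and without TGF-alpha replicate 1 or TGF-alpha plus gefitinib replicate 2. The interval of Mcm5 (0.98 to 1.42) did not overlap those of Mcm2 (0.07 to 0.35) or Mcm4 (0.40 to 0.73).

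The other licensing genes encode origin complex subunits, the loaders of the helicase and their inhibitor. Cdc6, which brings the helicase to the origin, was at 4.29 and 4.20 CPM in control, 12.8 and 10.3 CPM with TGF-alpha and 2.88 and 4.16 CPM with gefitinib added, with both TGF-alpha libraries above the other 4. It rose 2.72-fold (log2 fold change 1.44, 95% interval 0.99 to 1.89, adjusted p = 9.76e-05) and fell with gefitinib (log2 fold change -1.72, adjusted p = 2.20e-05). Orc1, the largest subunit of the origin recognition complex, had the largest estimate of all members at a very low level, 0.859 and 0.700 CPM in control, 2.09 and 3.20 CPM with TGF-alpha and 1.23 and 0.320 CPM with gefitinib added. The 2 gefitinib libraries differed from each other by more than the control libraries did, and the rise (log2 fold change 1.76, 95% interval 0.73 to 2.79, adjusted p = 0.0121) was no longer called without control replicate 1, control replicate 2 or TGF-alpha replicate 2. Orc1 was called lower with gefitinib (log2 fold change -1.71, adjusted p = 0.013) and was not called lower without TGF-alpha replicate 2 or TGF-alpha plus gefitinib replicate 2. Cdt1, the partner of Cdc6, rose 1.61-fold (log2 fold change 0.69, adjusted p = 0.00452) and was not called without control replicate 1 (adjusted p = 0.0564). It fell with gefitinib (log2 fold change -0.61, adjusted p = 0.0093) and was not called lower without TGF-alpha replicate 1. Gmnn encodes geminin, the inhibitor of Cdt1, and rose 2.15-fold (log2 fold change 1.10, adjusted p = 0.00107) and fell with gefitinib (log2 fold change -0.91, adjusted p = 0.00378). Orc6, the smallest subunit of the origin complex, was at 13 and 15.9 CPM in control, 17.2 and 17.5 CPM with TGF-alpha and 14.9 and 18.2 CPM with gefitinib added, so the groups lay close together and it was not called with TGF-alpha (log2 fold change 0.26, 95% interval -0.03 to 0.55, adjusted p = 0.176) or when gefitinib was added (log2 fold change -0.08, adjusted p = 0.715).

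Of the 4 genes that activate the loaded helicase, 3 were called in both of these comparisons. Gins2, a subunit of the GINS complex that joins the helicase, was at 16.1 and 16.6 CPM in control, 26.3 and 30.0 CPM with TGF-alpha and 15.6 and 15.8 CPM with gefitinib added. It rose 1.73-fold (log2 fold change 0.79, adjusted p = 5.37e-05) and fell with gefitinib (log2 fold change -0.84, adjusted p = 2.68e-05). Cdc45, the helicase's other cofactor, was at 7.49 and 8.72 CPM in control, 15.3 and 16.6 CPM with TGF-alpha and 8.36 and 8.4 CPM with gefitinib added, with no overlap between TGF-alpha and either other group (log2 fold change 0.97, adjusted p = 1.11e-04 with TGF-alpha, log2 fold change -0.93, adjusted p = 1.56e-04 with gefitinib added). Mcm10, which helps the helicase to start, was at 5.07 and 5.54 CPM in control, 11.2 and 11.3 CPM with TGF-alpha and 5.07 and 4.88 CPM with gefitinib added. Its changes were 1.09 (adjusted p = 2.06e-04) and -1.18 (adjusted p = 9.93e-05) on the log2 scale, and its 2 TGF-alpha libraries were nearly equal. Gins1, another GINS subunit, was low in these data at 2.11 and 1.97 CPM in control, 2.38 and 3.27 CPM with TGF-alpha and 1.44 and 2.72 CPM with gefitinib added, where the gefitinib libraries spanned those of control. It was not called with TGF-alpha (log2 fold change 0.47, 95% interval -0.27 to 1.21, adjusted p = 0.349) or with gefitinib added (log2 fold change -0.46, adjusted p = 0.341). Most exon bases of Gins2 (70.7%) overlap Gse1 on the opposite strand, and whether counting used strand is not given in the sources used here. Fen1, described below, overlaps an opposite-strand gene over a larger part of its exons, and other members do so over smaller parts. Among them are Chaf1a (33.6%, with Ubxn6, 4397 counts in total against 1694) and Orc6 (7.14%, with Vps35, 6087 against 1341).

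All 5 polymerase and primase genes fell when gefitinib was added, and 4 of them were called higher with TGF-alpha. Pold1, the catalytic subunit of the polymerase that makes the lagging strand, was at 35.8 and 36.9 CPM in control, 59.5 and 58.2 CPM with TGF-alpha and 37.8 and 31.9 CPM with gefitinib added. It rose 1.62-fold (log2 fold change 0.69, adjusted p = 1.82e-05) and fell with gefitinib (log2 fold change -0.75, adjusted p = 7.92e-06). Pole, its counterpart on the leading strand, was at 13 and 16.3 CPM in control, 30.2 and 26.0 CPM with TGF-alpha and 15.3 and 12.4 CPM with gefitinib added, and the 2 control libraries were further apart than those of Pold1. It rose 1.91-fold (log2 fold change 0.93, adjusted p = 1.00e-04) and fell with gefitinib (log2 fold change -1.01, adjusted p = 4.75e-05). Pola1, which extends the primers, was at 6.56 and 9.55 CPM in control, 16.4 and 17.2 CPM with TGF-alpha and 10.1 and 9.35 CPM with gefitinib added (log2 fold change 1.05, adjusted p = 1.82e-04 with TGF-alpha). The primase subunits differed in their calls with TGF-alpha: Prim2 was at 12 and 11.3 CPM in control, 18.8 and 19.8 CPM with TGF-alpha and 12.7 and 11.6 CPM with gefitinib added and rose (log2 fold change 0.73, adjusted p = 3.33e-04), while Prim1 was at 7.10 and 7.2 CPM in control, 11.2 and 8.80 CPM with TGF-alpha and 5 and 6.00 CPM with gefitinib added and was not called (log2 fold change 0.49, 95% interval 0.09 to 0.88, adjusted p = 0.0601). Both fell when gefitinib was added (log2 fold change -0.66, adjusted p = 6.60e-04 for Prim2 and log2 fold change -0.87, adjusted p = 0.00258 for Prim1). Prim1 was called with TGF-alpha in 4 of its 14 alternative analyses, among them those without TGF-alpha replicate 2 and without TGF-alpha plus gefitinib replicate 1.

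The 7 genes of the clamp, its loader, single-strand binding and the joining of lagging-strand pieces all fell when gefitinib was added, and 6 rose with TGF-alpha. Pcna, the sliding clamp that holds polymerases on DNA, was at 24.7 and 24.6 CPM in control, 49.0 and 48.3 CPM with TGF-alpha and 28.2 and 27.3 CPM with gefitinib added, and its replicates were nearly equal in every group. It rose 1.97-fold (log2 fold change 0.98, 95% interval 0.80 to 1.16, adjusted p = 4.41e-07) and fell with gefitinib (log2 fold change -0.81, adjusted p = 2.86e-06). A near-identical copy, Pcna-ps2, was listed with 177 and 218 counts in control, 399 and 299 with TGF-alpha and 210 and 175 with gefitinib added, so how reads were split between them is uncertain. Lig1, the ligase that seals the pieces, was at 23.6 and 21.4 CPM in control, 50.2 and 42.5 CPM with TGF-alpha and 21.0 and 19.9 CPM with gefitinib added. It rose 2.07-fold (log2 fold change 1.05, adjusted p = 1.91e-06) and fell with gefitinib (log2 fold change -1.18, adjusted p = 6.13e-07). The 3 clamp loader genes differed in their calls. Rfc3 was at 10.4 and 14.1 CPM in control, 20.9 and 25 CPM with TGF-alpha and 11.6 and 13 CPM with gefitinib added and rose 1.86-fold (log2 fold change 0.90, adjusted p = 2.77e-04), and it fell with gefitinib (log2 fold change -0.90, adjusted p = 2.71e-04). Rfc4 was at 5.78 and 5.73 CPM in control, 7.50 and 4.94 CPM with TGF-alpha and 3.56 and 4.32 CPM with gefitinib added, with the control libraries between the 2 TGF-alpha libraries, and was not called (log2 fold change 0.11, 95% interval -0.38 to 0.61, adjusted p = 0.765). Rfc4 was called lower when gefitinib was added (log2 fold change -0.66, adjusted p = 0.0479), and 9 of 14 alternatives lost that call. Fen1, which trims the flaps of lagging-strand pieces, rose 1.63-fold and Rfc5 1.43-fold, the latter not called under DESeq2, in the test against a 1.2-fold change or without control replicate 2, and 78.8% of the exon bases of Fen1 overlap the antisense gene Gm10143. On the opposite strand, 13.4% of the exon bases of Rfc4 overlap Eif4a2 (14908 counts in total against 442 for Rfc4). For Rfc5, 15.4% overlap Wsb2 (10806 against 1004). The part of such overlaps in these counts was not tested. Rpa2, a subunit of the protein that coats single-stranded DNA, rose 1.27-fold (log2 fold change 0.35, adjusted p = 0.0321) and was not called under DESeq2, in the test against a 1.2-fold change or without control replicate 1 or TGF-alpha replicate 1. It fell with gefitinib (log2 fold change -0.50, adjusted p = 0.00392) and was not called lower without TGF-alpha replicate 1.

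The enzymes of nucleotide supply had the highest median change of the 7 role groups, 1.26 with TGF-alpha and -1.28 when gefitinib was added, with 4 of 5 called in each. Rrm2, the subunit of ribonucleotide reductase that limits the making of deoxynucleotides, was at 33.6 and 35.0 CPM in control, 93.4 and 84.0 CPM with TGF-alpha and 36.7 and 36.5 CPM with gefitinib added. It lies at chr12:24708241-24714146 (GRCm38), had the smallest p of all members with TGF-alpha and rose 2.58-fold (log2 fold change 1.37, 95% interval 1.21 to 1.53, adjusted p = 3.23e-09). It fell when gefitinib was added (log2 fold change -1.28, adjusted p = 6.79e-09), and its interval against control was -0.08 to 0.27. Rrm1, the large subunit of the same enzyme, was at 33.6 and 32.7 CPM in control, 81.5 and 77.7 CPM with TGF-alpha and 33.6 and 30.0 CPM with gefitinib added, and its changes of 1.26 and -1.32 on the log2 scale were close to those of Rrm2 (adjusted p = 1.11e-08 and 7.21e-09). Tk1, the thymidine kinase of the salvage pathway, was at 10.7 and 10.8 CPM in control, 32.9 and 30.9 CPM with TGF-alpha and 10.8 and 8.56 CPM with gefitinib added. Its 2.96-fold rise (log2 fold change 1.57, 95% interval 1.30 to 1.83, adjusted p = 1.63e-07) was the second largest among the members, and it fell with gefitinib (log2 fold change -1.71, adjusted p = 7.33e-08). Tyms and Dut, both on the route to thymidylate, had smaller estimates. Tyms was at 12.7 and 11.3 CPM in control, 18.0 and 15.8 CPM with TGF-alpha and 12.2 and 14.6 CPM with gefitinib added, rose with TGF-alpha (log2 fold change 0.50, adjusted p = 0.0129) and was not called when gefitinib was added (log2 fold change -0.34, 95% interval -0.63 to -0.05, adjusted p = 0.0694). That gefitinib comparison was called without TGF-alpha plus gefitinib replicate 2, and the rise was lost under DESeq2, in the test against a 1.2-fold change and without control replicate 2 or TGF-alpha replicate 1. Dut was at 20.9 and 23.0 CPM in control, 27.3 and 25.7 CPM with TGF-alpha and 19.1 and 20.5 CPM with gefitinib added, with a small step between groups that was not called with TGF-alpha (log2 fold change 0.27, 95% interval 0.05 to 0.49, adjusted p = 0.0653). It was called lower when gefitinib was added (log2 fold change -0.42, adjusted p = 0.00632), but not in the test against a 1.2-fold change or without TGF-alpha replicate 1.

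All 4 genes that restore chromatin and DNA methylation behind the fork rose with TGF-alpha and fell when gefitinib was added, with medians of 1.07 and -0.98. Uhrf1, which recognises hemimethylated DNA and recruits Dnmt1, was at 14.4 and 13.3 CPM in control, 42.3 and 37.0 CPM with TGF-alpha and 13.6 and 10.5 CPM with gefitinib added, with the TGF-alpha libraries far from the other 4. It rose 2.87-fold (log2 fold change 1.52, 95% interval 1.25 to 1.79, adjusted p = 2.61e-07) and fell with gefitinib (log2 fold change -1.71, adjusted p = 8.39e-08). Dnmt1, the maintenance methyltransferase, was at 107 and 109 CPM in control, 188 and 172 CPM with TGF-alpha and 99.0 and 85.2 CPM with gefitinib added. Its rise was smaller, 1.67-fold (log2 fold change 0.74, 95% interval 0.59 to 0.89, adjusted p = 1.23e-06), and it fell with gefitinib (log2 fold change -0.96, adjusted p = 7.77e-08). Both gefitinib libraries of Dnmt1 lay below both controls (log2 fold change -0.22, adjusted p = 0.0693), a difference called without TGF-alpha plus gefitinib replicate 1 and with no filter on low counts. Chaf1a and Chaf1b are subunits of the CAF-1 complex that places histones on new DNA. Chaf1a was at 16 and 14.6 CPM in control, 32.2 and 28.7 CPM with TGF-alpha and 15.3 and 15.5 CPM with gefitinib added, a change of 0.99 up and -0.99 when gefitinib was added (adjusted p = 5.68e-06 and 5.82e-06). Chaf1b rose 2.22-fold (log2 fold change 1.15, adjusted p = 8.47e-05) and fell with gefitinib (log2 fold change -0.73, adjusted p = 0.00261), and with gefitinib added its level of 9.73 and 7.68 CPM lay above the control level of 6.24 and 6.81 CPM without a call (log2 fold change 0.42, adjusted p = 0.165).

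Of the 6 G1/S regulators, 5 rose with TGF-alpha and 4 fell when gefitinib was added. E2f7 and E2f8, which repress E2F targets, had the smallest p-values of these. E2f8 was at 8.90 and 7.71 CPM in control, 18.3 and 17.3 CPM with TGF-alpha and 9.59 and 8.80 CPM with gefitinib added and rose 2.15-fold (log2 fold change 1.11, adjusted p = 2.20e-05) and fell with gefitinib (log2 fold change -0.95, adjusted p = 7.99e-05). E2f7 was at 7.57 and 5.79 CPM in control, 13.6 and 13.7 CPM with TGF-alpha and 5.48 and 4.40 CPM with gefitinib added and rose 2.06-fold (log2 fold change 1.04, adjusted p = 3.82e-04), and both gefitinib libraries lay below both controls (log2 fold change -1.46, adjusted p = 2.21e-05 against TGF-alpha, log2 fold change -0.42, adjusted p = 0.222 against control). Both cyclins that drive the transition rose. Ccne1, cyclin E1, was at 14.8 and 16.7 CPM in control, 27.0 and 23.3 CPM with TGF-alpha and 18.2 and 20.7 CPM with gefitinib added and rose 1.59-fold (log2 fold change 0.67, adjusted p = 5.54e-04). It fell with gefitinib (log2 fold change -0.37, adjusted p = 0.0241) and was not called lower under DESeq2, in the test against a 1.2-fold change or without TGF-alpha replicate 1 or TGF-alpha plus gefitinib replicate 1. Ccne2, cyclin E2, was at 3.28 and 2.93 CPM in control, 5.91 and 6.11 CPM with TGF-alpha and 3.70 and 3.28 CPM with gefitinib added, rose 1.94-fold (log2 fold change 0.96, adjusted p = 0.00516) and fell with gefitinib (log2 fold change -0.78, adjusted p = 0.0154). The fall of Ccne2 was not called under DESeq2, in the test against a 1.2-fold change or without either TGF-alpha library or TGF-alpha plus gefitinib replicate 2.

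E2f1, the activator best known for turning on replication genes, stood close to its TGF-alpha level with gefitinib added. It was at 45.6 and 51.6 CPM in control, 58.9 and 68.0 CPM with TGF-alpha and 61.4 and 56.7 CPM with gefitinib added, so the gefitinib libraries overlapped the TGF-alpha libraries and lay above both controls. Gefitinib and control libraries did not overlap, in either direction, for 52.1% of all tested genes. The rise with TGF-alpha was 1.30-fold (log2 fold change 0.38, 95% interval 0.20 to 0.57, adjusted p = 0.0034), and it was not called in the test against a 1.2-fold change or without control replicate 1 or TGF-alpha replicate 2. The change when gefitinib was added was -0.10 (95% interval -0.28 to 0.08, adjusted p = 0.392), and TGF-alpha plus gefitinib differed from control by 0.28 (95% interval 0.09 to 0.47, adjusted p = 0.0583). That last difference was called with no scaling of library sizes and with no filter on low counts, and not in the other 12 alternatives. E2f2, another activator, was at 2.50 and 1.59 CPM in control, 3.25 and 2.54 CPM with TGF-alpha and 2.26 and 1.84 CPM with gefitinib added and was called in no comparison (log2 fold change 0.52, 95% interval -0.18 to 1.21, adjusted p = 0.265 with TGF-alpha, log2 fold change -0.49, adjusted p = 0.275 with gefitinib added).

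**Figure D3:**
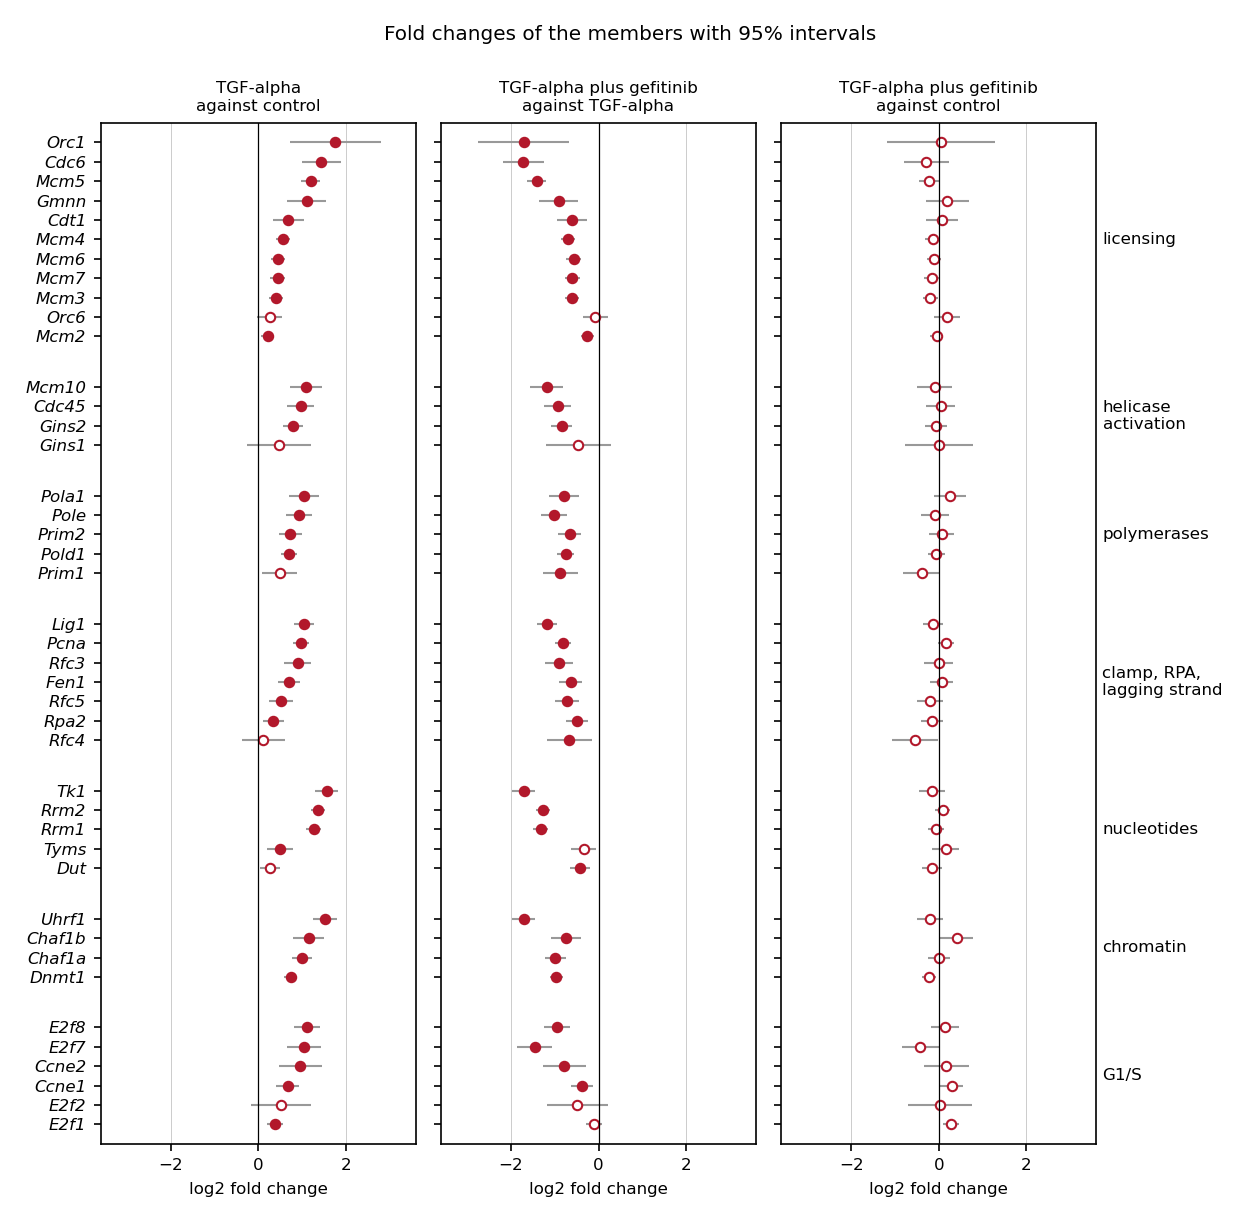
Log2 fold change (x axis) of each member (y axis) in the 3 comparisons, with 95% intervals as lines, filled points for called members and open points for those not called. In the left panel 36 points are filled and all lie right of 0, in the middle panel 37 are filled and all lie left of 0, and in the right panel none is filled.

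Per exon length the order of the members differed between the groups. In control, Mcm2 had the highest level per length, 18.3 ± 0.69 CPM per kb (SD, n = 2), ahead of Dnmt1 at 17.1 ± 0.26, Pcna at 16.2 ± 0.075, Rrm2 at 15.6 ± 0.47 and E2f1 at 15.4 ± 1.35. The last 3 of these did not differ beyond the spread of E2f1. With TGF-alpha, Rrm2 ranked first at 40.4 ± 3.03 CPM per kb, followed by Pcna at 32.0 ± 0.32, Dnmt1 at 28.6 ± 1.89, Tk1 at 22.1 ± 0.97 and Mcm2 at 21.3 ± 0.50. Tk1 moved from rank 17 to rank 4 and Mcm2 from rank 1 to rank 5, and Tk1 and Mcm2 with TGF-alpha lay within 1 SD of Tk1 of each other. Orc1 was lowest in control, at 0.26 ± 0.037 CPM per kb. Counts listed under Pcna-ps2 were not added to those of Pcna, so the rank of Pcna, and with it the first place in each group, is uncertain.

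**Figure D4:**
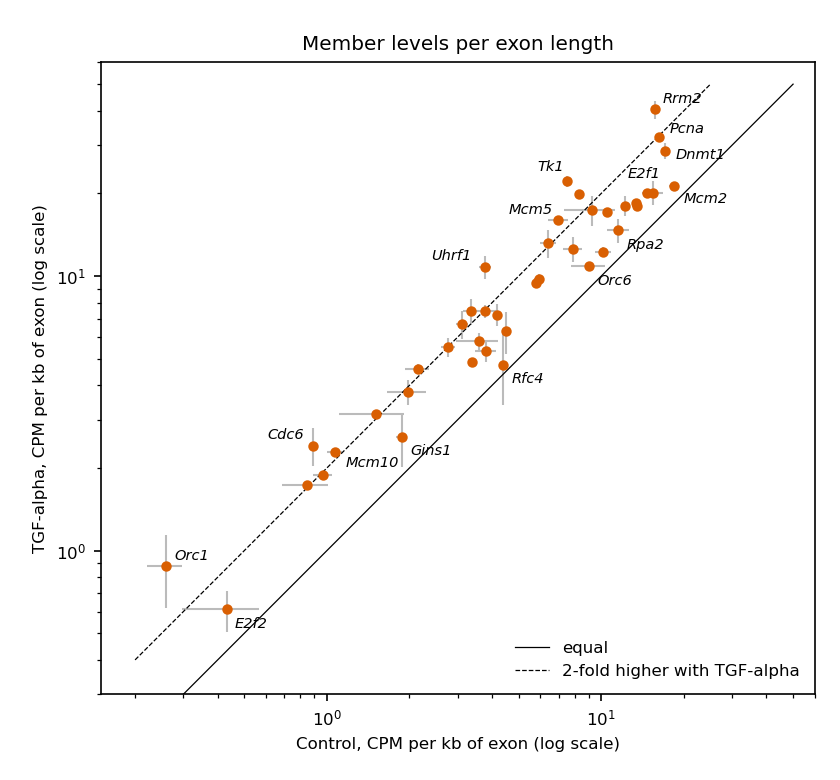
Mean level per exon length in control (x axis) and with TGF-alpha (y axis), in CPM per kb on log scales, for the 42 members with SD bars (n = 2 libraries). All points lie above the solid line of equal levels, and 14, among them Rrm2, Tk1, Uhrf1 and Cdc6, lie above the dashed line of a 2-fold rise.

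Other genes of the same processes, from lists that hold none of the members, mostly moved in the members' direction where they were called. Of 62 other replication genes, 25 rose and 4 fell with TGF-alpha, with a median of 0.24. When gefitinib was added, 3 rose and 29 fell, with a median of -0.28. Over all tested genes, 14.0% fell with TGF-alpha and 17.0% rose when gefitinib was added. The 4 falls and the 3 rises were smaller shares of the 62 than these. With TGF-alpha, 18 of the 62 were called without control replicate 2 and 19 without TGF-alpha replicate 2. Clspn, a mediator of the replication checkpoint, was at 9.68 and 11.8 CPM in control, 27.3 and 22.0 CPM with TGF-alpha and 8.70 and 7.92 CPM with gefitinib added (log2 fold change 1.19, adjusted p = 1.46e-05 with TGF-alpha). Asf1b, a histone chaperone, rose 2.48-fold (log2 fold change 1.31, adjusted p = 2.42e-05), and Dbf4, which activates the kinase Cdc7, rose 1.96-fold (log2 fold change 0.97, adjusted p = 4.75e-05). The genes that fell were Cad, Orc2, Nme1 and Rrm2b: Orc2, a partner of Orc1, was at 16.1 and 14.6 CPM in control, 11.3 and 12 CPM with TGF-alpha and 14.8 and 15.9 CPM with gefitinib added (log2 fold change -0.39, adjusted p = 0.0283), and Cad, an enzyme of pyrimidine synthesis, went from 127 and 130.3 CPM to 103 and 91.5 CPM (log2 fold change -0.40, adjusted p = 2.18e-04). Wdhd1, a fork component, and Timeless, of the fork protection complex, fell with gefitinib (log2 fold change -1.23, adjusted p = 5.73e-06 and log2 fold change -1.11, adjusted p = 2.01e-05). Against control, Pold2 and Cad were called lower with TGF-alpha plus gefitinib (log2 fold change -0.31, adjusted p = 0.0267 and log2 fold change -0.22, adjusted p = 0.045). That count of 2 was 0 under DESeq2, in the test against a 1.2-fold change and without either control library or TGF-alpha plus gefitinib replicate 2. It was 1 with no scaling or without TGF-alpha plus gefitinib replicate 1.

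Of 27 other G1/S genes, 10 rose and 1 fell with TGF-alpha, and 3 rose and 10 fell when gefitinib was added. The shares of all tested genes were 15.9% higher and 14.0% lower with TGF-alpha, and 17.0% and 16.9% when gefitinib was added. With TGF-alpha, 7 of the 27 were called without control replicate 1 and 6 without TGF-alpha replicate 1, and with gefitinib added 7 without TGF-alpha replicate 1. Ccnd1, cyclin D1, was at 185 and 188 CPM in control, 371 and 355 CPM with TGF-alpha and 176 and 169 CPM with gefitinib added (log2 fold change 0.96, adjusted p = 1.56e-09 with TGF-alpha), and Ccna2, cyclin A2, was at 18.7 and 20.3 CPM in control, 47.0 and 50.4 CPM with TGF-alpha and 18.5 and 18.3 CPM with gefitinib added (log2 fold change 1.32, adjusted p = 5.64e-08). Cdkn1c, the inhibitor p57, moved the other way, at 357 and 361 CPM in control, 138 and 163 CPM with TGF-alpha and 360.3 and 336 CPM with gefitinib added (log2 fold change -1.26, adjusted p = 2.19e-09), with both TGF-alpha libraries far below the other 4. Cdkn2c, another inhibitor of the cyclin D kinases, rose from 46.0 and 44.4 CPM to 73.0 and 68.9 CPM (log2 fold change 0.65, adjusted p = 4.58e-06). The kinase gene Cdk4 and the inhibitor gene Cdkn1a were the 2 called higher in TGF-alpha plus gefitinib than in control (log2 fold change 0.34, adjusted p = 6.87e-04 and log2 fold change 0.30, adjusted p = 0.0054). That count was 1 without control replicate 1 and 0 in the test against a 1.2-fold change.

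All 30 mitosis genes rose with TGF-alpha, with a median of 1.25, and all 30 fell when gefitinib was added, with a median of -1.30. Mki67, a marker of cycling cells, was at 82.3 and 83 CPM in control, 222 and 194 CPM with TGF-alpha and 73.1 and 71.3 CPM with gefitinib added, and Top2a, the topoisomerase of chromosome condensation, was at 66.9 and 73.3 CPM in control, 171 and 159 CPM with TGF-alpha and 61.0 and 58.7 CPM with gefitinib added. Kif23, a kinesin of cell division, was the 1 mitosis gene called against control with TGF-alpha plus gefitinib (log2 fold change -0.37, adjusted p = 0.0433). No mitosis gene was called there under DESeq2, with no scaling, in the test against a 1.2-fold change, with the replicate block or in the fit of 4 libraries. None was called when 1 library was left out, except that 2 were without TGF-alpha plus gefitinib replicate 1. The summed level of the members divided by that of the mitosis genes was 1.37 and 1.32 in the control libraries, 0.94 and 0.98 with TGF-alpha, and 1.42 and 1.37 with both agents. It was lower in both TGF-alpha libraries than in the other 4, and the TGF-alpha mean over the control mean was 2.35 ± 0.18 for the mitosis sum and 1.68 ± 0.062 for the member sum (errors from the SDs). The main replication-linked messages of histone genes are not polyadenylated, and whether this bears on their counts was not tested. Histone genes were mostly too low to test: 10 of 70 passed the filter. Of these, Hist1h1c and Hist2h3c1 were called lower with TGF-alpha and none higher, with 1 called when control replicate 1 or any TGF-alpha or gefitinib library was left out. Over all tested genes, 14.0% were called lower and 15.9% higher with TGF-alpha. When gefitinib was added, 4 of the 10 histone genes were called higher and 0 lower, where 17.0% of all tested genes were called higher and 16.9% lower. Hist1h1c was at 62.2 and 55.8 CPM in control, 37.4 and 33.4 CPM with TGF-alpha and 65.0 and 75.6 CPM with gefitinib added.

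**Figure D5:**
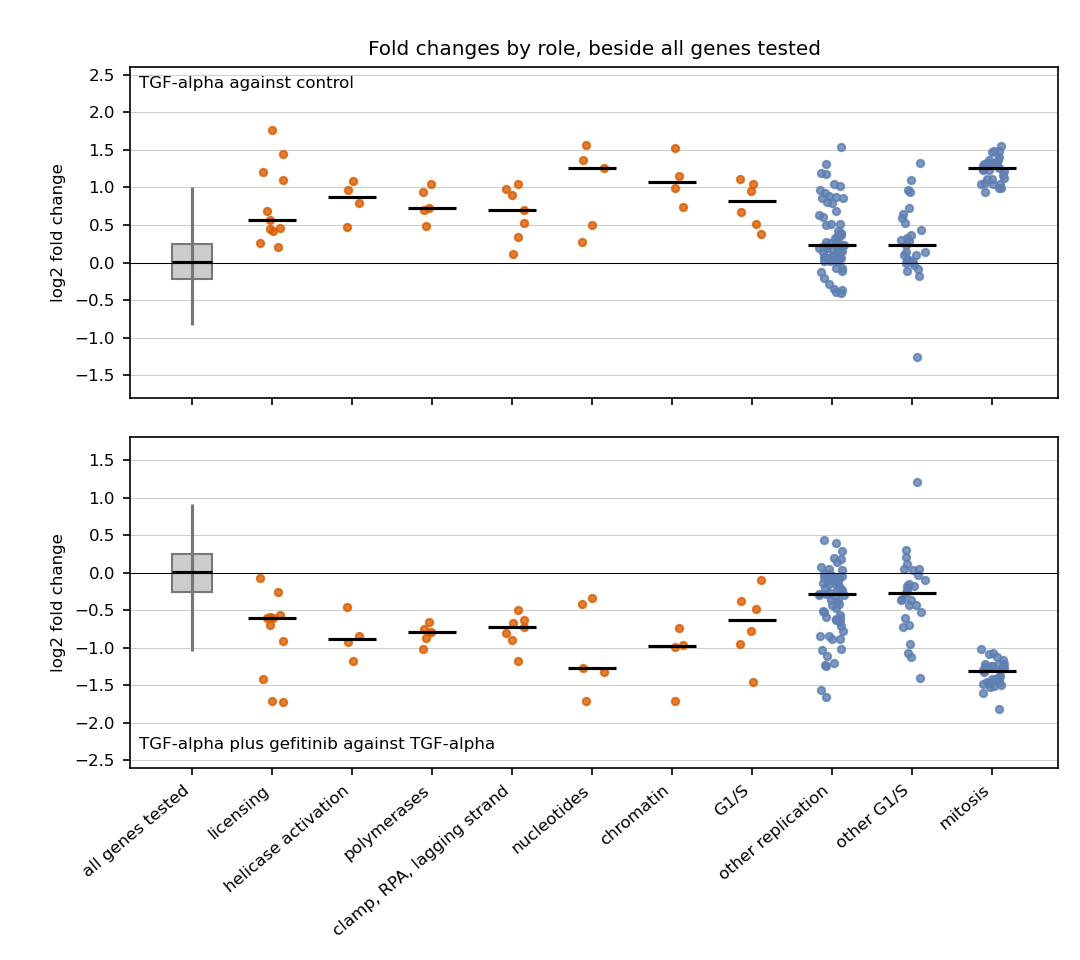
Log2 fold change (y axis) of the members by role (orange) and of 3 lists of other genes (blue), with TGF-alpha against control above and with gefitinib added below. Points are genes, black bars are medians, and the grey box with whiskers gives the middle 50% and the 5th to 95th percentile of all tested genes. Mitosis genes have medians of 1.25 and -1.30, and the role medians of the members run from 0.56 to 1.26 above and from -1.28 to -0.61 below.

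Markers of chondrocytes, the labelled cell type, were abundant in every library, and they moved between groups. The summed level of 13 chondrocyte markers was 80536 ± 3654 CPM in control, 39444 ± 838 CPM with TGF-alpha and 69427 ± 1771 CPM after gefitinib and TGF-alpha, and all 13 were called lower with TGF-alpha. Of 5 tested fibroblast markers, Cd34 and Pdgfra were called higher and Clec3b and Dpt lower with TGF-alpha, and 2 were called higher and 3 lower with gefitinib added. Pdgfra was at 172 and 176 CPM in control, 329 and 326 CPM with TGF-alpha and 122 and 114 CPM with gefitinib added, and the summed level of the 6 genes was 5100 ± 355, 5397 ± 268 and 3599 ± 207 CPM in the same order of groups. The smooth muscle and pericyte sum, mostly Acta2, was 534 ± 41.6, 157 ± 4.67 and 467 ± 26.6 CPM, and the osteoblast sum was 155 ± 1.09, 59.0 ± 3.52 and 101 ± 2.84 CPM. The macrophage and osteoclast sum, mostly Ctsk, was 69.5 ± 1.10, 81.4 ± 7.18 and 107 ± 2.74 CPM, with the defining genes Ptprc and Emr1 at 0 in every library. Of the 8 genes in this sum 4 were tested, with 2 called higher and 0 lower with TGF-alpha. When gefitinib was added, 1 was called higher and 2 lower. Endothelial markers summed to under 1 CPM, with Cdh5 and Cldn5 at 0. Erythroid markers were also under 1 CPM and adipocyte markers under 2 CPM in each group's mean. The part of the chondrocyte, fibroblast, smooth muscle and osteoblast shifts in the members' changes was not tested.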

How the data were processed

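Per the labels' protocols, 6 RNA libraries were made for Ion Proton sequencing. The authors deposited 1 table of whole-number read counts per gene, not normalized, with 1 column per library. Per the submitters' processing notes, the build was GRCm38. The aligner, counter, annotation and strand setting are not given in these sources.

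Genes were kept by filterByExpr (minimum count 10, 15362 genes), scaled by TMM and fitted in edgeR 4.0.16 (R 4.3.3) with group as the only term over all 6 libraries (3 residual and 11.2 prior degrees of freedom). Tests were two-sided quasi-likelihood tests, adjusted by Benjamini-Hochberg over all tested genes, with calls made below an adjusted p of 0.05. The fit was also run on simulated data to check the code, and no result here rests on that run. CPM and fold changes were computed from the counts, and 95% intervals come from the fitted fold change and its SE. DESeq2 1.42.0 was an alternative. Exon lengths and overlaps are from GENCODE M21, and motifs were searched in RefSeq start-site windows.

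The members, lists and tests were chosen with earlier results of these data known. In each role and each of the first 2 comparisons, the 3 called members with the smallest p and all not called are given with values, as are the largest and smallest called changes, and up to 3 genes per direction from each other list. Others named were chosen after their values were seen. Replicate numbers were not treated as pairs.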

Additional observations from a re-analysis of the deposited data

How the results depend on the processing

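Members called with TGF-alpha numbered 30 to 38 over all alternatives (32 by DESeq2, 30 against a 1.2-fold change, and 31 to 37 when 1 library was left out), and members called when gefitinib was added 30 to 37 (34, 32, and 30 to 36). In these, 31 and 31 of 42 members kept their direction and stayed called, or stayed not called, in every alternative that tested them. The first 31 include Orc6, Gins1 and E2f2, which stayed not called, and the second 31 include Gins1 and E2f2, which did so too. Against control 25 members kept their direction and stayed not called. Against control the count of 0 became 1 with no scaling of library sizes (E2f1), 2 with no filter on low counts (E2f1 and Dnmt1) and 0 to 1 when 1 library was left out (Dnmt1, without TGF-alpha plus gefitinib replicate 1). Uncalled member estimates changed sign in 1, 2 and 28 cases in the 3 comparisons, and no called change reversed. Correlations of deviations between same-numbered libraries were 0.012, -0.0076 and -0.022, so no shared deviation was seen. This cannot show whether same-numbered libraries shared animals, cultures or days, and the labels do not say. With the replicate block 36, 36 and 0 members, 1 histone gene with TGF-alpha and 0 mitosis genes against control were called. Orc1 had as few as 4 counts in a library.

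Against a 1.2-fold change, 2319, 2669 and 277 of 4600, 5217 and 1463 genes were called, with 19, 20 and 0 other replication genes, 7, 8 and 0 other G1/S genes, 1 and 0 histone genes (first and last comparison) and 0 mitosis genes against control. Against control DESeq2 called 946 genes, 0 other replication, 0 mitosis and 0 histone genes, and it called 1 histone gene with TGF-alpha. No scaling of library sizes gave 1 other replication and 0 mitosis genes against control, RLE scaling 2 mitosis genes, no filter 5 mitosis and 4 histone genes, and a minimum count of 50 gave 2 mitosis and 1 histone genes, with 1 and 2 histone genes in the other 2 comparisons. Fitting only the 4 libraries compared gave 1 histone gene with TGF-alpha and 0 mitosis genes against control. With 1 library left out, all-gene calls against control ranged from 649 (without control replicate 2) to 1291, other replication genes from 18 to 30, 23 to 30 and 0 to 2 in the 3 comparisons, other G1/S genes from 6 to 13, 7 to 13 and 1 to 2, histone genes from 1 to 2, 3 to 5 and 0 to 2, and mitosis genes against control from 0 to 2. Among the libraries whose absence moved a count by over 1.5 times were control replicate 2 (18) and TGF-alpha replicate 2 (19) for other replication genes with TGF-alpha, and control replicate 1 (7) and TGF-alpha replicate 1 (6) for other G1/S genes with TGF-alpha. Others were TGF-alpha replicate 1 (7) for other G1/S genes when gefitinib was added, and both controls (666 and 649) and TGF-alpha plus gefitinib replicate 2 (893) for all genes against control. Against control the 2 other replication genes became 0 without either control library or TGF-alpha plus gefitinib replicate 2, and 1 without TGF-alpha plus gefitinib replicate 1. The 2 histone genes became 0 without either control library and 1 without TGF-alpha plus gefitinib replicate 2. The 2 other G1/S genes became 1 without control replicate 1. The 1 mitosis gene became 2 without TGF-alpha plus gefitinib replicate 1 and 0 without each other library. The 2 histone genes called with TGF-alpha became 1 without each library other than control replicate 2. As a share of raw counts the summed member level changed 1.76-fold with TGF-alpha and 1.01-fold against control. In 100-base windows, 6.98% of member start sites had an E2F match, against 9.68% for other replication genes, and 6.98% a CHR match. The causes of these differences were not tested.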
